A study of Homo sapiens with 6 samples.

Results

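The genes examined were 9 components of the interferon pathway, which are the transcription factors IRF1, IRF3, IRF7 and IRF9, the signal transducer STAT2, the receptor subunit IFNAR1, the kinase JAK1 and the RNA sensors IFIH1 and DDX58. They were taken by symbol from the 24551 gene symbols measured, and each had a single value in every library. Their mRNA was measured by RNA-Seq in DU145, a prostate cancer cell line, and in 769-P, a renal cell adenocarcinoma cell line, after knockdown of SPOP by siRNA. SPOP is the substrate-binding subunit of a CUL3 ubiquitin ligase. Each line had 1 library of cells transfected with a control siRNA (NC), 1 with SPOP siRNA 1 and 1 with SPOP siRNA 2, so that 6 libraries were compared. The values are FPKM (fragment numbers divided by transcript length and by the mapped total of the library), which can be set side by side between genes of different length. Each control stood alone, and the 2 siRNA libraries of a line served as its replicates, so that p-values measure the spread between siRNA libraries. The sample labels do not say whether these came from separate cultures. The spread of a gene was fitted over both lines together. A p-value for a single line therefore also rests on the siRNA libraries of the other line. The RNA came from bulk cultures, in which fewer cells with a transcript cannot be told apart from less of it per cell.

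RNA of viral origin in the cytoplasm is recognised by RIG-I, the product of DDX58, and by MDA5, the product of IFIH1. Through kinases they activate IRF3 and IRF7, which switch on the interferon genes. Secreted type I interferon binds a receptor of IFNAR1 and IFNAR2, and the receptor kinases JAK1 and TYK2 phosphorylate STAT proteins, of which STAT2 joins IRF9 in the complex ISGF3. ISGF3 binds interferon-stimulated response elements (ISRE) in the promoters of interferon-stimulated genes, and STAT dimers bind gamma-activated sites (GAS). IRF1, IRF7, IRF9, STAT2, IFIH1 and DDX58 are themselves raised by interferon, so that the pathway feeds back on its own components.

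Promoter sequence was available for 7 of the 9 genes, and it is shown where it held one of these elements in the 250 bases before the start of the gene, together with 2 target genes whose values are given later. The ISRE core was searched as GAAANNGAAA and the GAS core as TTCNNNGAA on both strands, with overlapping matches counted. Sequences are from RefSeq on GRCh38.p14, written 5′ to 3′ on the strand of the gene, and capitals mark the matches. The windows are IRF1 at chr5:132490879-132490907 and IFIH1 at chr2:162318686-162318853 on the minus strand, IRF9 at chr14:24161192-24161220 and ISG15 at chr1:1013374-1013409 on the plus strand, and IFI6 at chr1:27672266-27672358 on the minus strand.
IRF1, GAS: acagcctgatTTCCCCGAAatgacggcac
IRF9, GAS: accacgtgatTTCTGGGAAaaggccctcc
IFIH1, ISRE: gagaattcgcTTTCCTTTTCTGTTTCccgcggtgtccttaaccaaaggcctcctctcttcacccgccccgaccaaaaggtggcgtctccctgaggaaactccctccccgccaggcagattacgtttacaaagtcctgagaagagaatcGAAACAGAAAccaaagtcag
ISG15, ISRE: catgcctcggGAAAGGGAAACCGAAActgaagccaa
IFI6, ISRE: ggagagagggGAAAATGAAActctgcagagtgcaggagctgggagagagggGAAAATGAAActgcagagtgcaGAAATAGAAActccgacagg

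The GAS match of IRF1 lay 124 to 116 bases before the start and that of IRF9 63 to 55 bases before it. IFIH1 had a pair of overlapping ISRE matches on the opposite strand, at 159 to 150 and 153 to 144 bases, and a match at 21 to 12 bases on its own strand. ISG15 held 2 overlapping ISRE matches and IFI6 held 3. In the 250 bases upstream, 3.02% of the 35116 promoter entries held the ISRE letters and 6.57% held the GAS letters. Neither set of letters was found there in STAT2, JAK1, IFNAR1 or DDX58. A match describes the sequence and was not tested as a binding site. IRF3 and IRF7 had no entry.

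The targeted gene was examined first. SPOP was at 16.1 FPKM in the DU145 control, 2.77 with siRNA 1 and 2.96 with siRNA 2, which left 17.2% and 18.4% of the control value. The 769-P libraries held 11.6 FPKM in the control, 1.53 with siRNA 1 and 1.39 with siRNA 2, which left 13.2% and 12.0%. SPOP was therefore low in all 4 siRNA libraries, and its averaged change on the log2(FPKM + 1) scale was -2.25 (SE 0.171, adjusted p = 0.0197 from limma). For single lines limma gave an adjusted p of 0.134 (DU145) and of 0.0948 (769-P), so that a reduction of this size did not pass the test in either line alone.

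Depth was estimated from the ratio most often seen between the low values of 2 libraries. Relative to the 769-P control it was 1.17 for the DU145 control, 0.692 and 0.679 for its siRNA libraries, and 1.07 and 1.41 for the 769-P siRNA libraries. The absolute depth is not known, and intervals for counting error could not be given. The DU145 control and the 769-P library of siRNA 2 stood apart in listing 287 and 237 of 366 olfactory receptor genes above 0, against 3 to 5 in the other libraries, at a mean of 0.345 and 0.227 FPKM. Epithelial KRT8 was abundant in every library, whereas epithelial KRT19 was at 384 to 462 FPKM in DU145 and at 0 to 3.56 in 769-P. Renal PAX8 was at 106 to 125 FPKM in 769-P against 1.10 to 1.47 in DU145. The prostate marker KLK3 was at or near 0 in DU145, where the highest of 6 prostate markers was at 7.65, 11.4 and 6.85 FPKM. In 769-P the highest of these was at 1.95, 1.35 and 0.630 FPKM. The clear cell marker CA9 was at 0 in all 3 libraries of 769-P. Of the 6 tested markers of the renal list, limma called 5 higher in 769-P and 1 higher in DU145, against 42.1% of all genes called by line. Of the immune cell markers, PTPRC reached 0.03 FPKM, whereas CD68 was at 20.7 to 74.7 FPKM. The 5 measured fibroblast and endothelial markers summed to 1.78 FPKM in the 769-P control and to 10.3 and 7.76 with the siRNAs, of which COL1A1 made up 9.68 and 7.36, while PECAM1 was at 0. In DU145 they summed to 3.20 to 3.93. The part of these markers in the results below was not tested.

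The 9 genes were expressed in both lines, at 1.52 to 167 FPKM. In DU145 the mean of the 3 libraries was highest for IRF3 (51.6 ± 7.19 FPKM, SD, n = 3), followed by JAK1 (13.7 ± 1.24), STAT2 (10.9 ± 3.22), IRF1 (8.73 ± 3.20), IFNAR1 (7.84 ± 1.51), IRF9 (7.55 ± 1.92), IRF7 (7.40 ± 2.08), DDX58 (2.49 ± 0.435) and IFIH1 (2.34 ± 0.721). From JAK1 to IRF7 the libraries of neighbouring genes overlapped, and so did those of both sensors, whereas IRF3 stood above all others and the sensors below. In 769-P the order was JAK1 (137 ± 27.1), IRF3 (46.4 ± 4.17), IRF9 (9.71 ± 6.17), IRF1 (9.65 ± 5.29), IRF7 (8.63 ± 5.61), IFNAR1 (6.43 ± 1.53), DDX58 (5.69 ± 1.99), STAT2 (5.25 ± 1.05) and IFIH1 (2.41 ± 1.27). Here JAK1 and IRF3 each stood clear of the gene after them, IFIH1 stayed below every library of STAT2 and DDX58, and the genes from IRF9 to STAT2 overlapped their neighbours. These SDs include the control and the siRNA libraries together.

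**Figure D1:**
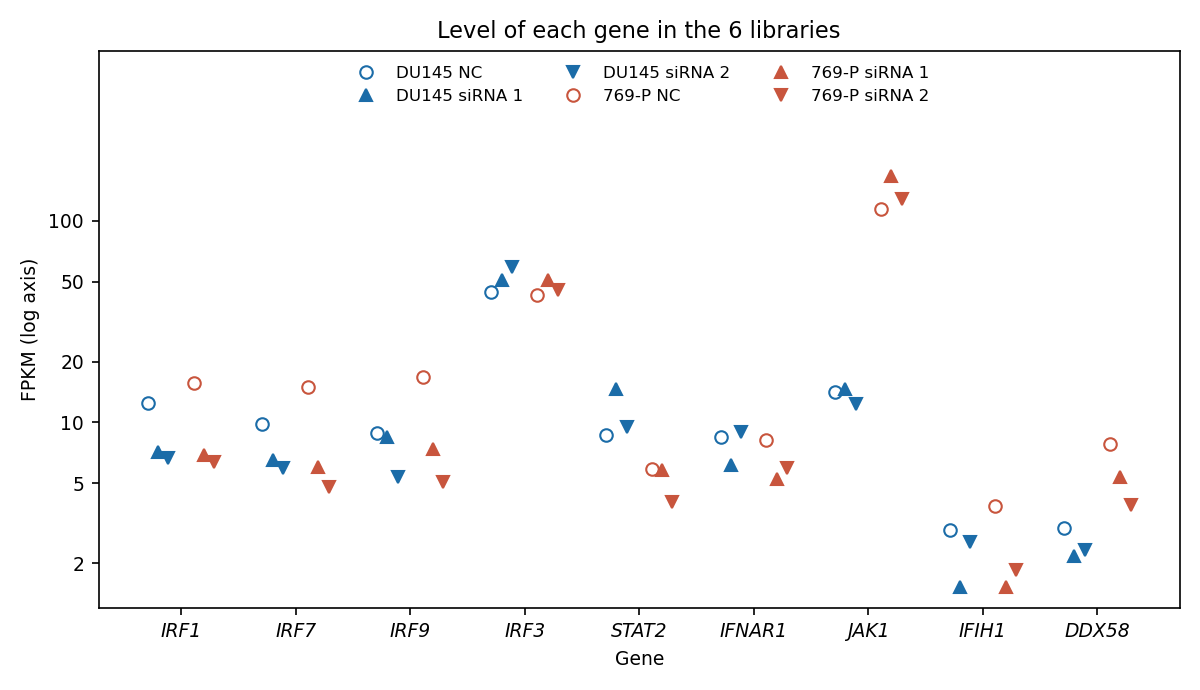
FPKM of the 9 genes on a log axis in each of the 6 libraries, with open circles for the control (NC), upward triangles for siRNA 1 and downward triangles for siRNA 2, in blue for DU145 and red for 769-P. JAK1 sits at 115 to 167 FPKM in 769-P and at 12.3 to 14.7 in DU145, and the open circles of IRF1 and IRF7 lie above the triangles of their line.

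The effect of SPOP knockdown on the pathway components was then compared in both lines. IRF1 was lower by at least 1.5-fold, on the log2(FPKM + 1) scale, in all 4 siRNA libraries, and in 769-P IRF7, IRF9 and IFIH1 were lower by at least 1.5-fold with both siRNAs as well. The call therefore took 1 of 9 genes in DU145, where 1.19% of the 11865 genes tested were lower by this rule, and 4 of 9 in 769-P, where 3.73% were. In all 4 libraries it took 1 of 9 against 0.27% of the genes tested. None of the 9 was higher by at least 1.5-fold with both siRNAs, against 4.72% of all genes in DU145 and 3.6% in 769-P. The 9 genes were chosen with earlier results of these data known, so that these counts are a description. The median change of all genes was 0.07 and 0.12 in DU145 and 0 and -0.06 in 769-P, and centring on it moved the split of all genes from 141 lower and 560 higher to 275 and 309 in DU145, and from 442 and 427 to 268 and 614 in 769-P. After centring IRF7 was called in DU145 as well, and the 4 genes called in 769-P were the same. None passed the test across all genes in any knockdown contrast, as given further below.

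IRF1, an interferon-induced activator of antiviral and antigen presentation genes on chromosome 5 (131776132 to 131844411, minus strand, GRCh37), was at 12.4 FPKM in the DU145 control and at 7.11 FPKM after siRNA 1 and 6.67 after siRNA 2. Its 769-P values were 15.8 FPKM in the control, 6.85 with siRNA 1 and 6.33 with siRNA 2. All 4 siRNA libraries lay between 6.33 and 7.11 FPKM, below both controls. The log2 changes were -0.73 and -0.81 in DU145 and -1.09 and -1.19 in 769-P. In the annotation of GRCh37, 22.9% of the exonic bases of IRF1 are shared with the antisense transcript IRF1-AS1, and as no strand-specific counting is stated, reads of both may not be told apart there.

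IRF7, the master activator of type I interferon genes on chromosome 11 (612553 to 615983, minus strand), was at 9.78 FPKM in the DU145 control, 6.51 with siRNA 1 and 5.92 with siRNA 2. The values in 769-P were 15.1 FPKM in the control, 6.03 with siRNA 1 and 4.80 with siRNA 2. The siRNA libraries were thus below the control in both lines, and 40.0% and 31.8% of the control value was left in 769-P. In DU145 the log2 changes of -0.52 and -0.64 lay on either side of the 1.5-fold limit. IRF7 had the largest mean absolute log2 change of the 9 genes over the 4 siRNA libraries (0.956), next to that of IRF1 (0.954).

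IRF9, the DNA-binding subunit of ISGF3 on chromosome 14 (24630443 to 24637252, plus strand), was at 8.82 FPKM in the DU145 control, 8.48 with siRNA 1 and 5.34 with siRNA 2. Its 769-P level was 16.7 FPKM in the control, 7.36 with siRNA 1 and 5.06 with siRNA 2. The 2 siRNAs differed in DU145, with log2 changes of -0.05 and -0.63, whereas in 769-P 44.05% and 30.3% of the control value was left. A protein-coding model on the same strand shares 23.9% of the exonic bases of IRF9, and its reads may be split between them.

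STAT2, the partner of IRF9 in ISGF3 on chromosome 12 (56735381 to 56753987, minus strand), was at 8.67 FPKM in the DU145 control, 14.6 with siRNA 1 and 9.48 with siRNA 2. The 769-P control held 5.90 FPKM, and the siRNA libraries 5.81 and 4.05. Both siRNA libraries were above the control in DU145 and below it in 769-P, but the log2 changes of 0.69, 0.12, -0.02 and -0.45 included values close to 0 in each line.

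IRF3, a constitutively expressed factor that is activated by phosphorylation downstream of the sensors, lies on chromosome 19 (50162826 to 50169132, minus strand). It was at 44.6 FPKM in the DU145 control, 51.1 with siRNA 1 and 59.0 with siRNA 2, and in 769-P at 43.0, 51.1 and 45.3 FPKM. All 4 siRNA libraries were slightly above their control, with log2 changes of 0.07 to 0.39, none of which reached 1.5-fold. The antisense gene BCL2L12 shares 19.3% of its exonic bases.

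Among the components of the receptor complex, IFNAR1, a subunit of the type I interferon receptor on chromosome 21 (34696692 to 34732170, plus strand), was at 8.48 FPKM in the DU145 control, 6.12 with siRNA 1 and 8.93 with siRNA 2. The 769-P control held 8.15 FPKM, and its siRNA libraries 5.25 and 5.90. The siRNA libraries lay on both sides of the control in DU145 and below it in 769-P, where the log2 changes were -0.55 and -0.41. JAK1, a tyrosine kinase bound to interferon receptors, on chromosome 1 (65298906 to 65533437, minus strand), was at 14.1, 14.7 and 12.3 FPKM in the control, siRNA 1 and siRNA 2 libraries of DU145. In 769-P it was at 115, 167 and 129 FPKM. Its siRNA libraries were on both sides of the control in DU145 and above it in 769-P, with log2 changes of 0.54 and 0.16.

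The sensors had the lowest mean levels in DU145. In 769-P IFIH1 was lowest, whereas the mean of DDX58 (5.69 FPKM) lay above that of STAT2 (5.25 FPKM). IFIH1, on chromosome 2 (163123584 to 163175194, minus strand), was at 2.92 FPKM in the DU145 control, 1.53 with siRNA 1 and 2.56 with siRNA 2. Its level in 769-P was 3.85 FPKM in the control, 1.52 with siRNA 1 and 1.85 with siRNA 2. All siRNA libraries were below their control, with 39.3% and 47.9% left in 769-P. The log2 changes were -0.63 and -0.14 in DU145 and -0.95 and -0.77 in 769-P. The mean of the olfactory receptor genes in the DU145 control, 0.345 FPKM, is close in size to some of these differences. In 769-P that mean was 0.00516 FPKM in the control, 0.00545 with siRNA 1 and 0.227 with siRNA 2. Subtracting it could therefore not lessen the fall of IFIH1 in 769-P, where the same 4 genes were called lower. In DU145, where the subtraction bears on the control, IRF1 alone was called lower, as before it. IFIH1 was not called there before the subtraction, so this count does not bear on its fall in DU145. The part of the background in that fall was not tested.

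DDX58, on chromosome 9 (32455300 to 32526206, minus strand), was at 2.98 FPKM in the DU145 control, 2.16 with siRNA 1 and 2.33 with siRNA 2. The 769-P libraries held 7.82 FPKM in the control, 5.37 with siRNA 1 and 3.89 with siRNA 2. The siRNA libraries were again below the control in both lines, and the log2 changes were -0.33 and -0.26 in DU145 and -0.47 and -0.85 in 769-P. Another protein-coding model on the same strand shares 43.2% of its exonic bases, so that the level of DDX58 is uncertain where the counting split them.

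**Figure D2:**
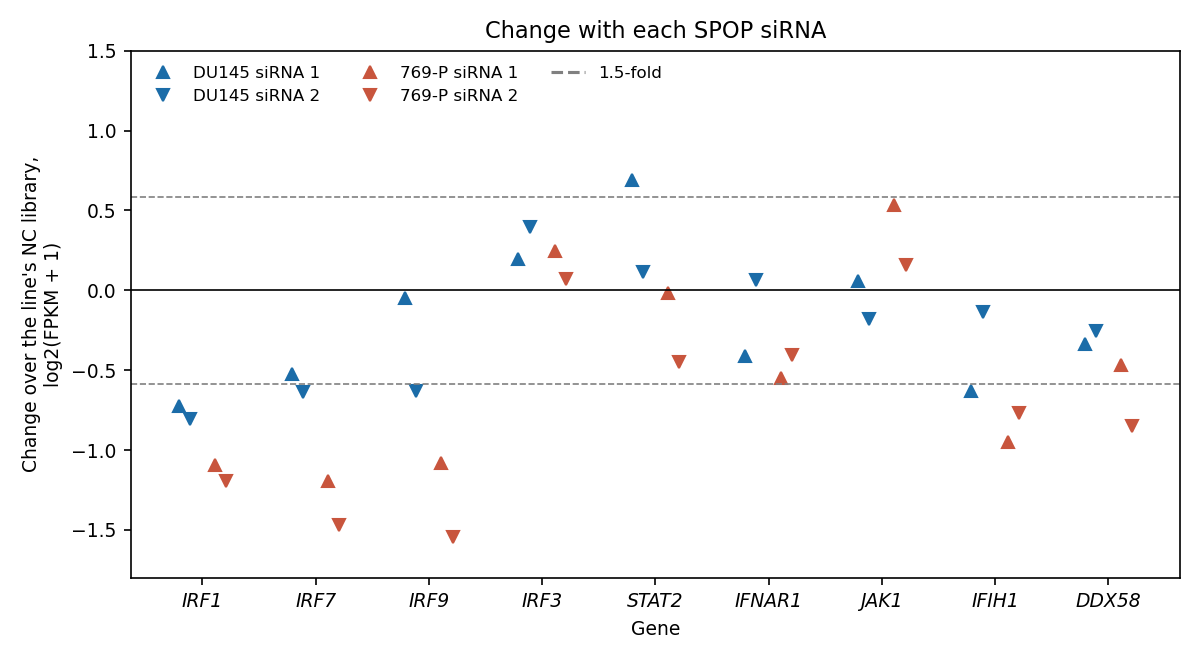
Change of each gene on the log2(FPKM + 1) scale in each SPOP siRNA library relative to the NC library of the line, with dashed lines at 1.5-fold, in blue for DU145 and red for 769-P. IRF1 is past the lower line in all 4 libraries, IRF7, IRF9 and IFIH1 are past it with both siRNAs in 769-P, and no gene is past the upper line with both siRNAs.

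By direction alone, 5 of the 9 genes were below the control with both siRNAs in DU145 and 7 in 769-P, and the same 5 (IRF1, IRF7, IRF9, IFIH1 and DDX58) were below it in all 4 libraries. Of the 11865 genes tested, 2631 were below the control with both siRNAs in DU145, 4688 in 769-P and 1610 in all 4 libraries. The median change of the 9 genes was -0.30 in DU145 and -0.66 in 769-P, beside 0.09 and -0.03 over all genes tested.

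In limma, which was fitted across all 11865 genes tested, the averaged change of both lines was -0.95 for IRF1 (SE 0.165, 95% interval -1.37 to -0.54, adjusted p = 0.294) and -0.96 for IRF7 (SE 0.182, 95% interval -1.41 to -0.50, adjusted p = 0.307). It was -0.83 for IRF9 (adjusted p = 0.391 from limma) and -0.62 for IFIH1 (adjusted p = 0.419 from limma). The intervals of these 4 genes lay below 0, and their unadjusted p-values were under 0.05, as were those of 11.1% of all genes, but none of the 9 genes passed after adjustment, where 0.236% of all genes did. In 769-P alone the estimates were -1.33 for IRF7 (SE 0.258), -1.31 for IRF9 (SE 0.36), -1.14 for IRF1 (SE 0.234) and -0.86 for IFIH1 (SE 0.308), with adjusted p-values of 0.594 to 0.693 from limma. There 0 of 9 passed against 0.101% of all genes, and 4 had an unadjusted p under 0.05, as 6.97% of all genes did. In DU145 the estimate for IRF1 was -0.77 (SE 0.234, 95% interval -1.35 to -0.18, adjusted p = 0.774 from limma). Here 0 of 9 passed against 0.135% of all genes, and IRF1 alone had an unadjusted p under 0.05, as 6.27% of all genes did.

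For the other genes the intervals crossed 0. The averaged change was -0.48 for DDX58 (95% interval -0.98 to 0.02), -0.33 for IFNAR1 (-0.86 to 0.20), 0.23 for IRF3 (-0.16 to 0.62), 0.14 for JAK1 (-0.32 to 0.60) and 0.08 for STAT2 (-0.55 to 0.71). These intervals allow changes of more than 1.5-fold in 1 direction at least, so that with these libraries a change cannot be told from none.

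**Figure D3:**
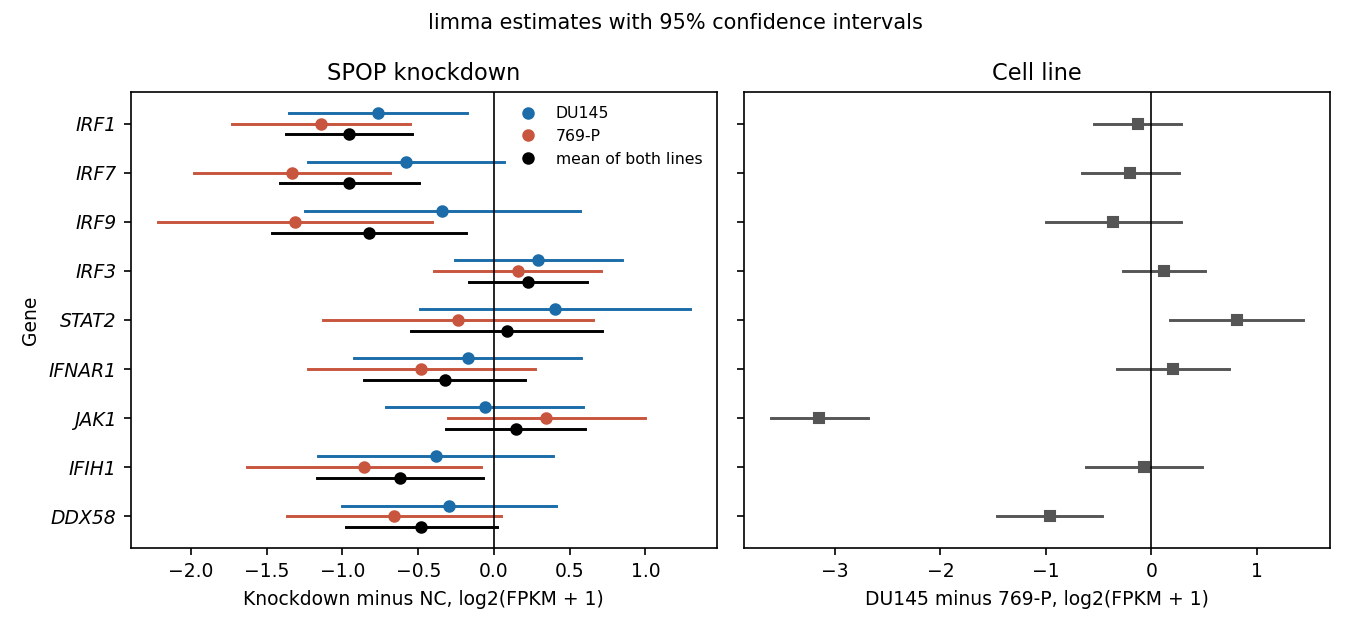
limma estimates for the 9 genes on the log2(FPKM + 1) scale with 95% confidence intervals. On the left is the knockdown change in DU145 (blue), in 769-P (red) and averaged (black), and on the right the difference DU145 minus 769-P over all libraries, where JAK1 lies at -3.15 and DDX58 at -0.97.

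Whether knockdown acted differently in the lines was tested as the difference between the changes. The changes of IRF9 (difference 0.97, 95% interval -0.31 to 2.26), IRF7 (0.75, -0.17 to 1.67) and STAT2 (0.64, -0.62 to 1.90) were estimated as more negative in 769-P than in DU145. All 9 adjusted p-values were 0.999 from limma, so that 0 of 9 passed against 0.169% of all genes. None had an unadjusted p under 0.05, where 2.74% of all genes did. The larger number of genes called in 769-P is therefore not shown to be a difference between the lines.

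The lines were also compared in level, averaged over control and knockdown. JAK1 was 8.17 times as high in the 769-P control as in the DU145 control, and the difference DU145 minus 769-P over all libraries was -3.15 on the log2 scale (SE 0.182, 95% interval -3.61 to -2.69, adjusted p = 0.000356 from limma). All 3 libraries of 769-P were above all 3 of DU145. DDX58 was 2.62 times as high in the 769-P control, with a difference of -0.97 (SE 0.198, adjusted p = 0.0137 from limma), also without overlap. DDX58 passed in 9 of 12 alternatives, over which its difference ranged from -1.29 to -0.87. It did not pass without a filter on level (adjusted p = 0.0665 from limma), nor without 769-P siRNA 1 or DU145 siRNA 1. STAT2 was higher in DU145, by 0.81 (SE 0.251, adjusted p = 0.05), at the limit of the test, and its libraries did not overlap between the lines. In this contrast 2 of 9 genes passed, which is below the 42.1% of all genes that did. Of these 4994 genes 1819 were lower in DU145, and after median-centring 2602 of 5303 were. The remaining 6 genes differed by -0.36 (IRF9) to 0.20 (IFNAR1), with adjusted p-values of 0.298 to 0.813 from limma.

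The genes whose 4 log2 changes were nearest to those of IRF7 were found by Euclidean distance among the 11865 genes tested. They were TXNRD1, a thioredoxin reductase (distance 0.223), NEK7, a kinase of the NLRP3 inflammasome (0.265), AMMECR1 (0.318), HELZ2, an interferon-induced helicase (0.394), and IRF1 itself (0.397). TXNRD1 was at 371 FPKM in the DU145 control and at 296 and 231 with the siRNAs, and in 769-P it was at 270 FPKM in the control and 111 and 93.8 with the siRNAs. The 4 changes share their controls in pairs, and the distance is a description over 4 libraries.

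The other genes of the pathway were examined by role. Of 21 interferon ligand genes none reached a mean of 1 FPKM. They summed to 9.44 FPKM in the DU145 control, with 7 listed at 0, and to 0.924 and 1.6 FPKM with the siRNAs, with 19 and 18 listed at 0. In 769-P they summed to 0.162, 0 and 2.55 FPKM in the control, siRNA 1 and siRNA 2 libraries. The highest sums fell in the same 2 libraries that listed many olfactory receptor genes above 0, and the part of that background was not tested.

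Of the other members of the IRF family and their binding proteins, 5 of 8 were tested. On the log2(FPKM + 1) scale none was past 1.5-fold with both siRNAs in either line. IRF5 was at 4.80, 2.02 and 2.87 FPKM in DU145, with log2 changes of -0.94 and -0.58 on either side of the limit. The median change of the 5 genes was 0.03 in DU145 and 0.17 in 769-P. Of the other receptors, kinases and STATs, 11 of 13 were tested and 1 was lower in each line, IFNGR1, the ligand-binding chain of the interferon gamma receptor. It was at 9.91, 5.50 and 6.23 FPKM in DU145 and at 7.51, 4.59 and 4.54 FPKM in 769-P. None was higher, and the medians were -0.15 and -0.01. By the same rule 1.19% of all genes tested were lower in DU145 and 3.73% in 769-P, and 4.72% and 3.6% were higher.

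Of 15 other sensors and adaptors tested, EIF2AK2, the kinase PKR that is activated by double-stranded RNA, was lower in 769-P (10.5, 4.99 and 4.87 FPKM). RNF135, a ubiquitin ligase for RIG-I, was higher in DU145 (8.98, 16.8 and 15.2 FPKM). The medians were -0.05 in DU145 and -0.13 in 769-P. Of 14 feedback inhibitors tested, ISG15, a ubiquitin-like modifier, was lower in both lines, at 117, 54.0 and 62.7 FPKM in DU145 and at 78.6, 14.3 and 19.3 FPKM in 769-P. USP18, the protease that removes ISG15 and restrains the receptor, was lower in 769-P (10.6, 2.24 and 2.01 FPKM), and so was SOCS1, an inhibitor of JAK kinases (1.81, 0.188 and 0.426 FPKM). The medians were -0.07 and -0.23. Of all genes tested, 1.19% were lower by the fold rule in DU145 and 3.73% in 769-P, and 4.72% were higher in DU145. No gene of these 4 groups passed limma in a knockdown contrast, where 0 to 3 genes per group had an unadjusted p under 0.05 in a single line, against 6.27% of all genes in DU145 and 6.97% in 769-P. For the averaged change 0 to 5 genes per group did, the 5 being of 15 sensors and adaptors, against 11.1% of all genes.

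Of 26 listed target genes of ISGF3, 20 were tested, and 16 of these were lower by at least 1.5-fold with both siRNAs in 769-P and 6 in DU145, 4 of them in both lines, and none was higher. By the same rule 3.73% of all genes were lower in 769-P, 1.19% in DU145 and 0.27% in both. The medians were -1.58 and -0.49, beside -0.03 and 0.09 over all genes tested. The list was chosen with earlier results of these data known, and the filter on mean level kept some of its genes through the 769-P control alone. The counts are therefore a description. IFI6, an interferon-induced inhibitor of apoptosis whose promoter is shown above, was at 106 FPKM in the DU145 control, 18.2 with siRNA 1 and 20.3 with siRNA 2, and in 769-P at 134, 3.50 and 4.16 FPKM. It fell by 4.81 on the log2 scale in 769-P (SE 0.228, adjusted p = 0.00361 from limma), whereas the adjusted p in DU145 was 0.0584. IFI27 was at 35.5 FPKM in the 769-P control and listed at 0 with both siRNAs (adjusted p = 0.0161 from limma), and at 2.13, 3.44 and 1.73 FPKM in DU145. As both siRNA values in 769-P were 0, the spread of IFI27 itself came from the DU145 siRNA libraries. Without either of the 769-P siRNA libraries 0 genes passed in that line, these included. BST2, which tethers budding virus, was at 17.0, 0.231 and 0.522 FPKM in 769-P and did not exceed 1.06 FPKM in DU145. IFITM1 was at 9.08, 0.705 and 0.532 FPKM in 769-P, and in DU145 the siRNA libraries were above the control, at 0.633, 1.07 and 3.27 FPKM.

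Of a further list of interferon targets, which holds genes of antigen presentation and other targets of IRF1, 6 of 17 were tested, and B2M, the light chain of MHC class I, was lower in 769-P (601, 318 and 265 FPKM). It was at 403, 329 and 311 FPKM in DU145, where the changes did not reach 1.5-fold. By the fold rule 3.73% of all genes tested were lower in 769-P. The medians of this group were 0.26 in DU145 and -0.09 in 769-P. HLA-E was listed at 0 in every library and PSMB8 in all but 1, and no change was read from such zeros.

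**Figure D4:**
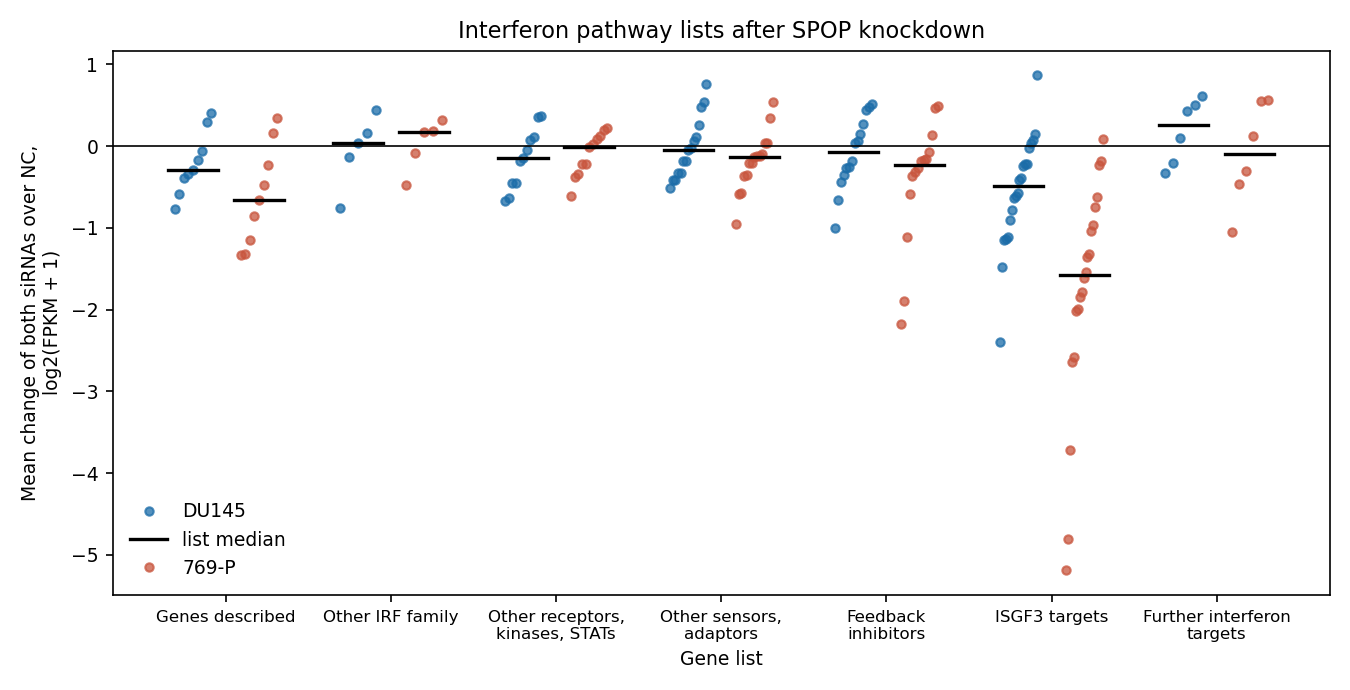
Mean change of both siRNAs over the control on the log2(FPKM + 1) scale for each tested gene of the 9 genes described and of 6 further pathway lists, in blue for DU145 and red for 769-P, with black bars for the list medians. The ISGF3 targets reach lowest, with medians of -0.49 in DU145 and -1.58 in 769-P, and the medians of the 9 genes are -0.30 and -0.66.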

How the data were processed

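RNA-Seq libraries of 6 samples were compared. The authors aligned paired reads of 100 bases by TopHat2 (build hg19), and the deposited values are FPKM computed by Cufflinks. The submitters' processing notes also name FastQC and cutadapt. The annotation and tool versions are not given in the sources used here. The methods of the study describe another library kit, another amount of RNA and more replicates than the labels, which give a single library per siRNA and control.

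Values of a repeated symbol were summed, a pseudocount of 1 was added before log2, which understates changes of low genes, and a mean of 1 FPKM or more over the 6 libraries was required for testing. The fold call needed 1.5-fold with each siRNA of a line, both up or both down. limma 3.58.1 in R 4.3.3 was fitted with 4 groups, 2 residual degrees of freedom and eBayes with a trend, with two-sided p-values adjusted by the Benjamini-Hochberg method and a threshold of 0.05. The fit was tested on simulated data. FPKM values hold no counts, so no count test was used.

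The 9 genes are all named. Genes of other lists are named when called in at least 1 line, up to 4 per list with the largest mean absolute change, and the 5 nearest genes to IRF7 by distance. IRF5 is named as well, for changes on either side of the limit. The genes and lists were chosen with earlier results of these data known. Positions are from the GENCODE annotation of GRCh37 and promoters from RefSeq on GRCh38.p14. Alternatives were a pseudocount of 0.1, no filter, a minimum mean of 5 FPKM, quantile normalization, median-centring, background subtraction, removal of small RNA genes, leaving out each siRNA library, a replicate block, no trend, 2-fold in place of 1.5-fold and the largest value of a repeated symbol. Python 3.11.15, pandas 2.3.3, numpy 2.4.6 and matplotlib 3.10.9 were used for tables and plots.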

Additional observations from a re-analysis of the deposited data

Results flagged for a closer look

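The change of STAT2 had opposite signs in the lines with both siRNAs, and the DU145 value exceeded that of 769-P by 0.638 on the log2 scale (adjusted p = 0.999 from limma). SOCS1 (1.26) and IFITM1 (3.51) also had opposite signs, with adjusted p-values of 0.999 and 0.738 from limma, so that none of these 3 differences passed. For IFI27 the difference was 5.34 (adjusted p = 0.0467 from limma), with the gene listed at 0 in both siRNA libraries of 769-P. No gene passed for this difference when small RNA genes, DU145 siRNA 2 or either 769-P siRNA library was left out, or with a pseudocount of 0.1.

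In the 769-P library of siRNA 2, 237 of 366 olfactory receptor genes were above 0, against 4 in the control of that line. The DU145 control listed 287.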

How the results depend on the processing

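Over 12 or 13 alternatives per gene, no knockdown estimate of the 9 genes in a single line passed the test, and IRF1, IRF7, IRF9, IFIH1 and DDX58 kept a negative sign in every one run. All 4 siRNA libraries of these genes lay below their control. Leaving out a library or changing the pseudocount, filter, trend or block could therefore not turn that sign. IFIH1 and DDX58 had no value with a mean of at least 5 FPKM, and leaving out the same siRNA number in both lines left no residual degrees of freedom. The replicate block, with the siRNA number shared by the lines in the labels only (correlation of the siRNA differences across genes 0.27), called 0 of 9 genes in every knockdown contrast and 3 for line, STAT2 being added (0.81, adjusted p = 0.00959). STAT2 passed for line in 4 of 13 alternatives, the others being a minimum of 5 FPKM, no trend and small RNA genes left out. Without a filter limma called 1 gene for the averaged knockdown (IRF1, adjusted p = 0.0252) and SPOP in DU145 (-2.15, adjusted p = 0.017). For line it called 1 gene there (JAK1), DDX58 being lost. The averaged change of SPOP did not pass with a pseudocount of 0.1 (-2.68, adjusted p = 0.0588) or without any 1 siRNA library (-2.27 to -2.23, adjusted p = 0.137 to 0.28). The genes called lower in DU145 numbered 2 after median-centring or quantile normalization (IRF7 being added) and 0 at 2-fold, and 1 to 3 when 1 siRNA library was left out: 3 without DU145 siRNA 1 (IRF1, IRF7 and IRF9) and 2 without DU145 siRNA 2 (IRF1 and IFIH1). The counts in all 4 libraries were the same under each. Without DU145 siRNA 1 or siRNA 2 the rule rested on 1 library of that line. It then called 423 and 856 of all genes lower in DU145, against 141. 1 gene was called higher in DU145 without siRNA 2 (0 to 1, STAT2), where 1404 of all genes were, against 560. In 769-P 3 to 5 were lower, with DDX58 added without siRNA 1 and IFIH1 lost at 2-fold. Without siRNA 1, 997 of all genes were lower in 769-P, against 442. Without 1 library, line calls numbered 1 to 2, and the sign turned for JAK1 in DU145 (-0.181 to 0.0578), IFNAR1 in DU145 (-0.413 to 0.0674), the averaged STAT2 (-0.0597 to 0.228) and IFIH1 by line (-0.196 to 0.0511). After median-centring it turned for IRF3 by line (-0.0459) and for its difference between lines (-0.0687). Over all genes, limma called 1186 in DU145, 148 in 769-P and 1239 averaged without a filter, 4, 10 and 12 with a minimum of 5 FPKM, and 0, 3 and 5 without small RNA genes, against 16, 12 and 28. Averaged calls were 8 with a pseudocount of 0.1 and 16 after quantile normalization, and calls without 1 library were 0 to 42. The difference between lines called 0 to 36, and 1202 without a filter, against 20. The causes were not tested.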
